A study of Drosophila melanogaster with 22 samples.

Results

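The genes described here encode the mitochondrial respiratory chain, the ATP synthase and the enzymes of the tricarboxylic acid (TCA) cycle of Drosophila melanogaster. They were taken by annotation alone, as the genes whose gene ontology terms in the deposited table name mitochondrial electron transport, ATP synthesis coupled proton transport or the TCA cycle. The rule found 116 genes among 15340 entries. By the term that placed them, 31 belonged to complex I, 4 to complex II, 13 to complex III, 12 to complex IV, 19 to the ATP synthase and 37 to the TCA cycle. SdhA, the flavoprotein subunit of complex II, carried only the TCA term and is counted there. Of the 116 genes, 77 were classed by hand as the main gene for a subunit or enzyme and 30 as second copies, related genes carrying the same term. A few of the 77 are counted there by their term only: CG32649, a factor of ubiquinone synthesis, under complex III, CG18809 under complex IV and CG5599 under the TCA cycle. The other 9 encode neither a subunit nor an enzyme of these pathways: HDAC6, Rpd3, Src42A, barr, klu, smt3, spoon and vimar under the TCA term, and z under the ATP synthase term. The terms therefore name more than the machinery itself, and the 9 genes are kept out of every value given for a complex. No gene of the mitochondrial genome was among the 116, so the subunits encoded there were not analysed here.

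RNA was sequenced from 22 pools of 47 to 124 GFP-labelled cells picked by a robotic sorter from dissociated larval brains, in 8 groups. Neuroblasts, the dividing stem cells of the brain, came from larvae 50 h after hatching. Wandering larvae, at the end of larval life, gave the neurons and the glia. The neuroblast groups held 3 libraries each: mushroom body neuroblasts left for 2 h, mushroom body neuroblasts given 3 washes, standard mushroom body neuroblasts, antennal lobe neuroblasts, type II neuroblasts (a class that divides through intermediate progenitors), and a pool of neuroblasts of the whole brain. Neurons and glia had 2 libraries each. Age therefore differs between neuroblasts and the other cell types, and the part of age and of cell type in a difference between them cannot be told apart. Larvae were kept at 25 °C in all groups, the sources used here do not name the drivers of GFP, and nothing says that replicate libraries came from separate dissections, so p-values measure the spread between these libraries.

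The respiratory chain passes electrons from NADH (complex I) and succinate (complex II) through complexes III and IV to oxygen and pumps protons across the inner mitochondrial membrane. The ATP synthase lets the protons flow back and makes ATP, and the TCA cycle in the matrix oxidises acetyl groups and supplies NADH and succinate. Most subunits are encoded in the nucleus and must be made in fixed proportions to assemble. In the fly larval brain, neuroblasts are known to use oxidative phosphorylation as well as glycolysis, and glia are known as a glycolytic tissue that supplies neurons with fuel.

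Libraries held 3150370 to 14282200 gene counts. The labels were checked on marker genes. The 6 neuroblast markers summed to 1983 to 3835 TPM (a level corrected for gene length, scaled to the same total in each library) in neuroblast libraries, 3.64 and 10.1 TPM in neurons and 66.9 and 309 TPM in glia, and ase was at 0 in both neuron libraries. The 6 glial markers summed to 17857 and 36180.4 TPM in glia and at most 480.4 TPM elsewhere, and the 6 neuronal markers to 4215 and 5383 TPM in neurons and at most 162 TPM elsewhere. Replicates correlated on log counts scaled by depth at 0.90 to 0.95 in neuroblast groups, 0.78 in neurons and 0.73 in glia. The glia also held the most fat body and blood cell RNA, 387 and 1297 TPM over 5 fat body markers and 76.4 and 206 TPM over 7 blood cell markers, with the fat body genes Lsp2 and Fbp2 at 0. In bulk samples fewer cells of a type and less RNA per cell cannot be told apart.

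Summed over the 107 subunit and enzyme genes, transcripts of this machinery were lowest in glia and, among neuroblasts, lowest in the antennal lobe lineage. The sum was 21629 ± 476 TPM in mushroom body neuroblasts after the 2 h wait, 21362 ± 2185 TPM after 3 washes and 21969.6 ± 1029 TPM in standard mushroom body neuroblasts (SD, n = 3 each). It was 16305 ± 632 TPM in antennal lobe neuroblasts, 21388 ± 1057 TPM in type II neuroblasts and 18209 ± 1408 TPM in the pool (SD, n = 3 each). Neurons stood at 17421 ± 1472 TPM and glia at 7533 ± 737 TPM (SD, n = 2 each). In order, the groups ran glia, antennal lobe, neurons, pool, 3 washes, type II, 2 h wait and standard mushroom body. The libraries of neurons, 16380 and 18462 TPM, overlapped those of both neighbours in that order, and the last 4 groups overlapped each other. With TPM taken over protein-coding genes alone, the means ran glia, antennal lobe, pool, neurons, standard mushroom body, type II, 2 h wait and 3 washes. On that scale the neuron libraries, 31456 and 20688 TPM, lay one above and one below every library of the neuroblast groups, and the pool averaged 24154.5 TPM. In glia the machinery was 0.753% of all TPM, against 1.63 to 2.20% in the other groups.

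**Figure D1:**
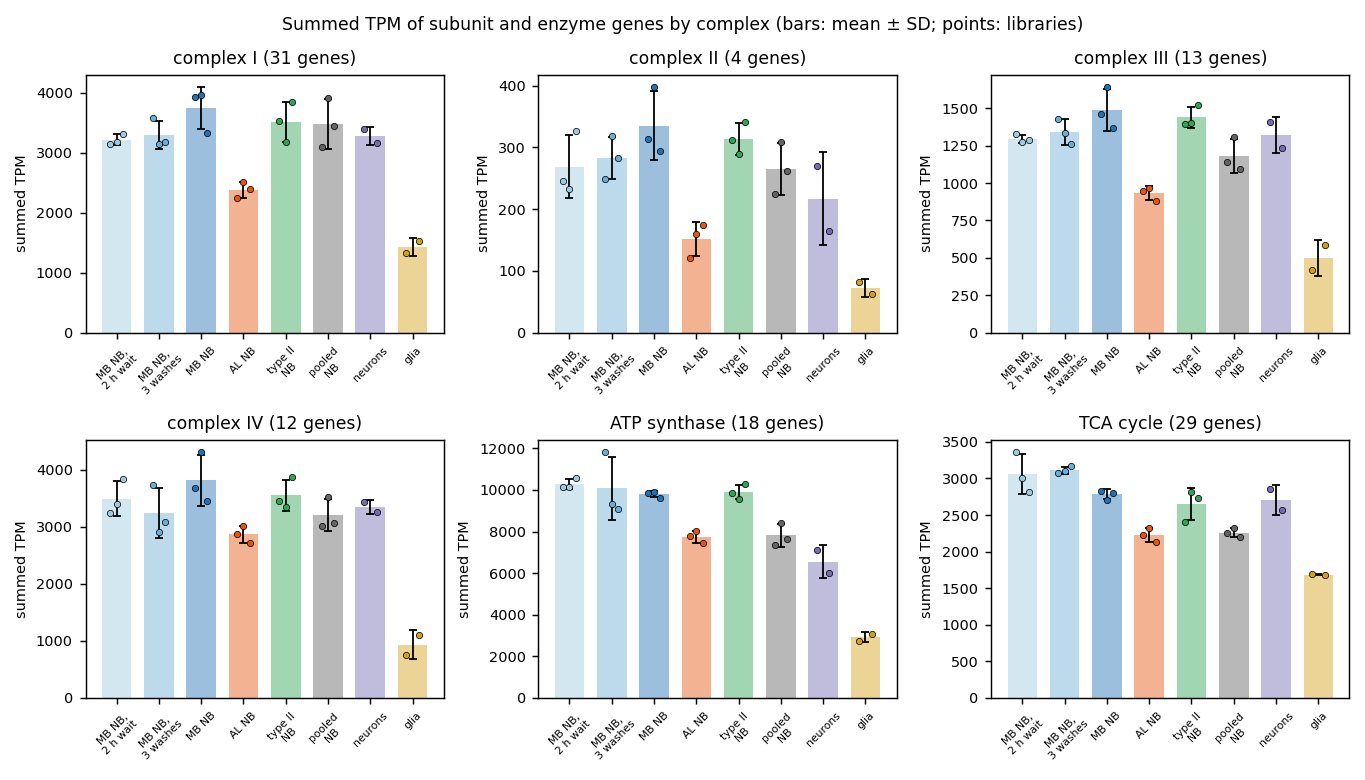
Summed TPM (vertical axes, linear from 0) of the subunit and enzyme genes of each complex in the 8 groups (horizontal axes; NB, neuroblasts; MB, mushroom body; AL, antennal lobe). Bars are means with SD and points are libraries. Glia are lowest in all 6 panels, and antennal lobe neuroblasts have the lowest mean of the neuroblast groups in all 6. Antennal lobe libraries overlap the group given 3 washes in the complex IV panel and the pool in the ATP synthase and TCA cycle panels. With TPM over protein-coding genes alone, the pool has the lowest neuroblast mean for those last classes (10365 TPM in the pool and 10616 TPM in antennal lobe for the ATP synthase, 2998 TPM in the pool and 3056 TPM in antennal lobe for the TCA cycle).

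The order differed between complexes. The proton-pumping complex I summed to 3932, 3973 and 3339 TPM in mushroom body neuroblasts, 2243, 2507 and 2395 TPM in antennal lobe neuroblasts and 3532, 3183 and 3843 TPM in type II neuroblasts. It summed to 3097, 3921 and 3442 TPM in the pool, 3391 and 3173 TPM in neurons and 1321 and 1530.5 TPM in glia. Antennal lobe and glial libraries lay below all other libraries for this complex.

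Complex II genes (the iron-sulfur subunit SdhB, the membrane anchors SdhC and CG10219, and the second copy CG6629, at 0 in all libraries but 1) summed to 314, 398 and 294 TPM in mushroom body neuroblasts, 121, 159.9 and 175 TPM in antennal lobe neuroblasts and 312, 289 and 341 TPM in type II neuroblasts. The pool had 224, 308 and 262 TPM, neurons 270.1 and 164 TPM and glia 82.4 and 61.7 TPM. The antennal lobe libraries overlapped the neurons here and lay below the other neuroblasts.

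The ATP synthase held the most transcript of the 6 classes in every group, and its sum was 9798 ± 154 TPM in mushroom body, 7741 ± 287 TPM in antennal lobe, 9907 ± 351 TPM in type II and 7813 ± 536 TPM in pooled neuroblasts (SD, n = 3 each). It was 6544 ± 793 TPM in neurons and 2917 ± 241 TPM in glia (SD, n = 2 each). The ATP synthase took 42.9 to 47.6% of the machinery's TPM as a group mean in neuroblasts, against 37.5% in neurons and 38.7% in glia.

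By the ratio of the highest to the lowest group mean, TCA cycle genes had the narrowest range of the 6 classes, with 3113 TPM after 3 washes and 1686 TPM in glia. They summed to 2249, 2323 and 2198 TPM in the pool, 2856 and 2562 TPM in neurons and 1691 and 1681 TPM in glia, while complex IV summed to 3023, 3524 and 3068 TPM in the pool, 3432 and 3260.4 TPM in neurons and 755 and 1111 TPM in glia. The TCA cycle took 22.5% ± 2.29 of the machinery's TPM in glia (SD, n = 2), against 12.4 to 14.7% in neuroblast groups and 15.6% ± 0.122 in neurons. Complex IV took 12.3% ± 2.13 in glia and 15.2 to 19.2% in the other groups.

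The most abundant of the subunit and enzyme genes was CG1746, the c-ring subunit that turns as protons pass, at 2020.4 to 3727 TPM in neuroblasts, 2443 and 2112 TPM in neurons and 822 and 821 TPM in glia. The catalytic core of the ATP synthase came next, with blw (the alpha subunit) at 528 to 2379.8 TPM over all libraries and ATPsyn-beta (the beta subunit, FBgn0010217, chromosome 4, 1052490 to 1055183, plus strand, dm3) at 393 to 2329 TPM. In the other classes the highest were levy in complex IV, a COX6A-type subunit, mtacp1 in complex I, the acyl carrier protein, CG4769 in complex III, cytochrome c1, CG10219 in complex II, and in the TCA cycle l(1)G0156, the alpha subunit of the NAD-dependent isocitrate dehydrogenase. The 77 main genes had a median level of 132 TPM (mean of the 8 groups), and CG3560 was listed at 0 in all libraries.

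By ratio of the highest to the lowest group mean, RFeSP had the widest range in complex III (22.8), CoVIII in complex IV (13.2), SdhC in complex II (14.8) and CG3621 in complex I (64.9). These ratios are descriptions of means and carry no test.

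The 30 second copies were a minor part of the transcript. Their median level was 0.622 TPM, 9 of them stayed under 1 TPM in every group, and together they summed to 94.6 ± 32.1 TPM in mushroom body neuroblasts (SD, n = 3) and 78.3 ± 4.89 TPM in glia (SD, n = 2). Among them CG31477, under the ATP synthase term, had the widest range of group means, a ratio of 45.7. Several such copies are known in Drosophila for expression in the testis. Of the 116 genes, 34 overlap another gene, 12 of them on the same strand, and reads of those and of near-identical copies could be split by the counting.

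Of the 96 genes with 5 TPM or more in a group, glia was the lowest group for 60, neurons for 17 and antennal lobe neuroblasts for 11. The highest group was neurons for 22, the pool for 21, standard mushroom body neuroblasts for 18 and type II neuroblasts for 13. The same ranking over all genes is not given here, so these counts are a description and do not set the genes apart from others.

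**Figure D2:**
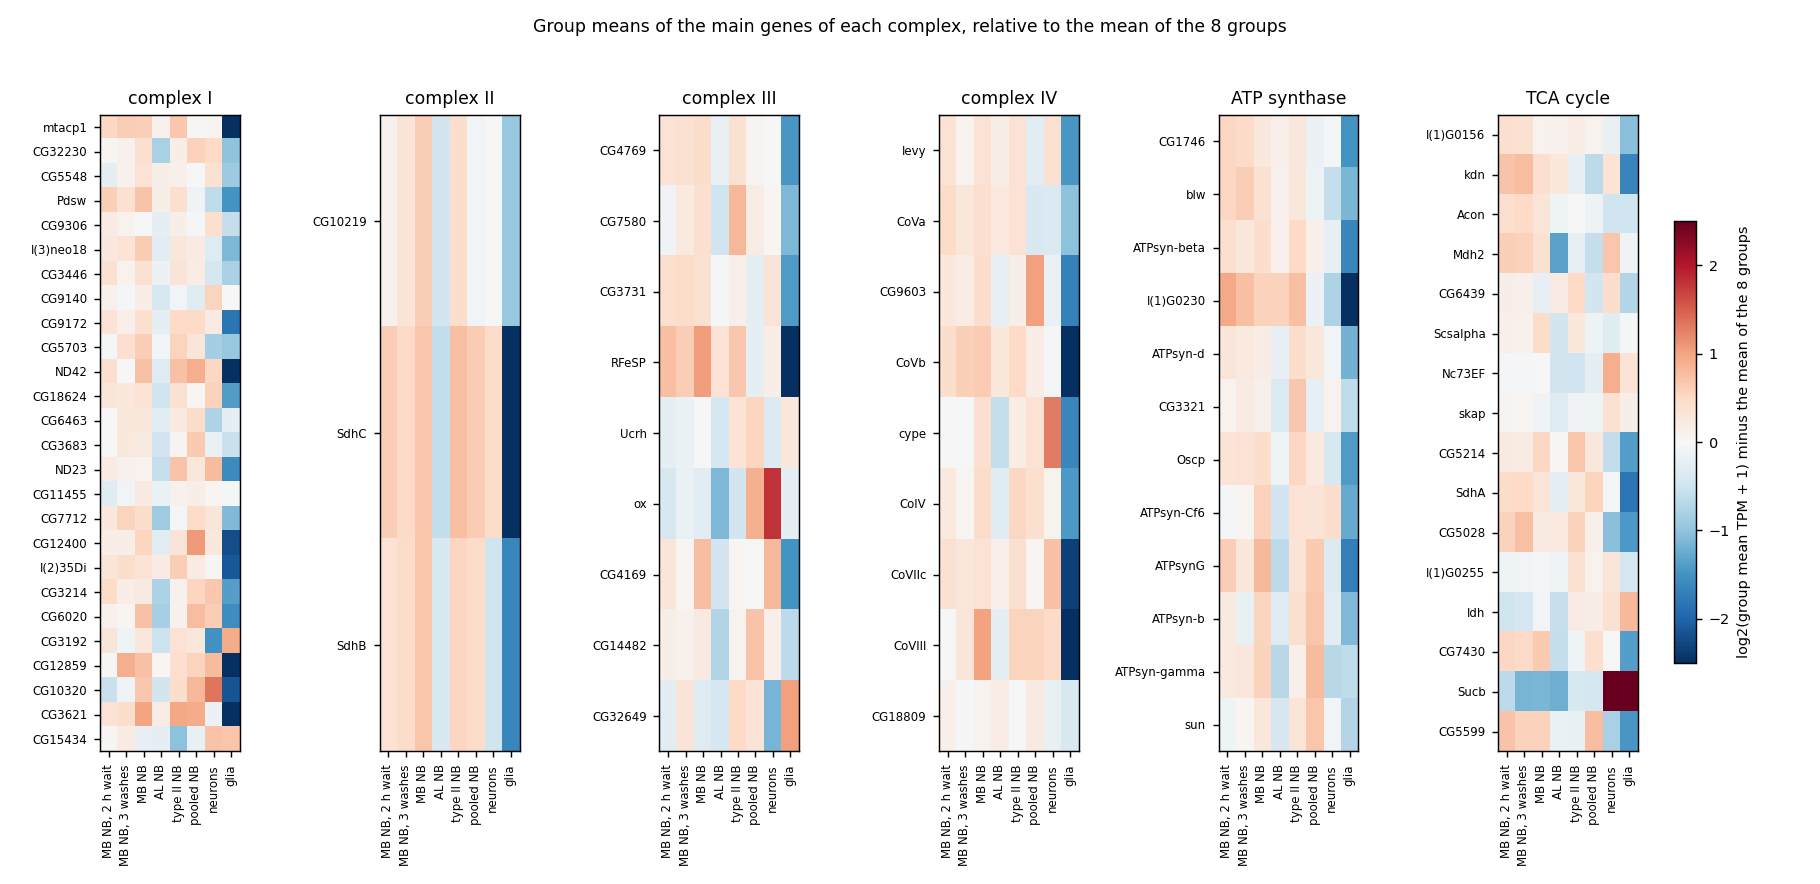
Each row is a main gene (kept at 5 TPM or more in a group) and each column a group; colour is log2(group mean TPM + 1) minus the mean of the 8 groups, from blue (lower) to red (higher). The glia column is blue for most subunits of complexes I to IV and the ATP synthase and mixed for the TCA cycle, and the antennal lobe column is pale blue for most rows.

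Pooled neuroblasts had higher values than glia for 58 of 66 tested genes of the respiratory chain and ATP synthase, and for 9 of 19 tested TCA cycle genes. Genes were compared by their counts with edgeR's quasi-likelihood test, with Benjamini-Hochberg adjustment over 9855 tested genes and a threshold of 0.05. Of all genes tested 7.0% were higher in pooled neuroblasts by this test and 13.6% were lower. Of the 94 tested genes with the terms, 14 were higher (14.9%) and 0 lower, and 12 of the 14 encode subunits. The median change of the 85 tested subunits and enzymes was 1.16 on the log2 scale, beside -0.00 for all genes tested. By complex, 3 of 28 tested complex I genes rose, 1 of 10 in complex III, 4 of 11 in complex IV, 4 of 14 in the ATP synthase and 0 of 3 in complex II. Of 19 tested TCA cycle genes, 0 rose and 0 fell, and their median change was -0.00, with 3.62 under scaling by spike-in counts per cell and -0.16 under the DESeq2 size factors. A change of scaling moves all genes of a library together. The value of 3.62 therefore does not set these enzymes apart from other genes.

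ND42, an accessory subunit of complex I (FBgn0019957, chromosome 3R, 17853508 to 17855115, plus strand, dm3), had 131, 158 and 129 TPM in pooled neuroblasts, against 1.54 and 15.3 TPM in glia. Each neuroblast library was several-fold above each glial library. The log2 change was 3.81 (SE 0.93, adjusted p = 0.0228). CG3621, a complex I subunit of the NDUFA7 type, had 27.0, 52.8 and 44.2 TPM in pooled neuroblasts and 0.696 and 0.648 TPM in glia. The glial values rest on 2 counts against 213, a ratio of 60.6 with a counting interval of 16.6 to 504 (95%, counting error only). The acyl carrier protein gene mtacp1 rose by 2.35 (SE 0.60, adjusted p = 0.0269), with 262, 361 and 403 TPM in pooled neuroblasts and 75.0 and 35.7 TPM in glia.

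RFeSP, the Rieske iron-sulfur subunit of complex III (FBgn0021906, chromosome 2L, 1612696 to 1614182, minus strand, dm3), had 114, 155 and 136 TPM in pooled neuroblasts and 6.67 and 22.2 TPM in glia. It was higher in neuroblasts by 2.98 on the log2 scale (SE 0.75, adjusted p = 0.0250). In complex IV the called genes were CoVb, CG9603 (a COX7A-type subunit), CoVIIc and CoVIII. CoVIII, a small subunit of the COX8 type, had 119, 132 and 131 TPM in pooled neuroblasts and 11.8 and 14.8 TPM in glia. Its groups lay far apart, and the log2 change was 3.00 (SE 0.87, adjusted p = 0.0410).

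In the ATP synthase, ATPsyn-beta had 1250.5, 1832 and 1412 TPM in pooled neuroblasts and 393 and 489.5 TPM in glia, and rose by 1.50 (SE 0.31, adjusted p = 0.0111). The c-ring gene CG1746 rose by 1.10, the delta subunit gene l(1)G0230 by 2.28 and ATPsynG (listed in the files under an older symbol), subunit g of the membrane part, by 2.13. Of the 76 main genes with 5 TPM or more in a group, 58 had every pooled neuroblast library above every glial library and 4 had the reverse. Of all genes at that level 33.2% had every glial library below every pooled neuroblast library. By complex the 58 were 21 of 27 in complex I, 3 of 3 in complex II, 6 of 9 in complex III, 8 of 9 in complex IV, 11 of 12 in the ATP synthase and 9 of 16 in the TCA cycle.

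Of the genes that carry the TCA term without being enzymes, smt3 and klu rose against glia. The SUMO gene smt3 had 5743, 5666 and 6076 TPM in pooled neuroblasts and 1268 and 1652 TPM in glia, and klu, a zinc finger transcription factor of neuroblasts, had 375, 241 and 323 TPM in pooled neuroblasts and 88.0 and 44.8 TPM in glia. Over the 18 neuroblast libraries smt3 stood at 5089 to 7767 TPM, while the TCA cycle enzymes together summed to 2136 to 3360 TPM.

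Around the machinery, 5 further lists of mitochondrial genes were read. Of 9 tested carriers and pores, 2 rose and 1 fell against glia. The outer membrane channel gene porin had 590.1, 628 and 696 TPM in pooled neuroblasts and 247 and 300.3 TPM in glia, and rose by 0.97 (adjusted p = 0.0329). Bmcp, an uncoupling-type carrier, had 19.6, 27.8 and 18.6 TPM in pooled neuroblasts and 0.191 and 0 TPM in glia, where it rests on 1 count. Ucp4C, another carrier of that kind, had 0.245, 0.727 and 1.81 TPM in pooled neuroblasts and 75.4 and 38.7 TPM in glia, and fell by 6.17 (adjusted p = 0.0272). The assembly factor gene for complex I CG7598 had 25.0, 28.2 and 28.9 TPM in pooled neuroblasts and 0.658 and 0.612 TPM in glia, as the called gene of 8 tested. The mitochondrial transcription factor gene mtTFB2 had 41.5, 37.0 and 35.8 TPM in pooled neuroblasts and 2.58 and 0.219 TPM in glia, as the called gene of 6 tested. Among 9 tested genes of pyruvate entry, Pdk, the kinase that switches pyruvate dehydrogenase off, fell by 1.55 (adjusted p = 0.0253), with 51.8, 45.8 and 35.3 TPM in pooled neuroblasts and 112 and 104 TPM in glia. Under spike-in scaling per cell its change was 2.03. Of 6 tested regulators and antioxidant genes, 0 passed.

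The count of 14 called genes was 5 without the third pooled neuroblast library, 6 without the first and 7 without the second, 24 and 25 without the first and the second neuron library, and 21 without the second glial library. It was 48 in 1 fit over all 22 libraries, and 32 with DESeq2. The share of all genes called under each of these settings is not given here. The glia differed from the pool in other measures as well. Glial libraries held 52 and 47 cells, against 101, 118 and 105 in the pool. ERCC spike-ins were 8.19 and 9.75% of gene plus ERCC counts in glia and at most 0.496% in the pool. Reads outside annotated genes were 18.2 and 20.6% in glia and 7.92 to 9.68% in the pool. The genes CR41602 and CR40677 together had 379809 and 298553 TPM in glia and 160394 to 196359 TPM in the pool. Fat body and blood cell markers were high in glia as given above. The part of these measures in the result was not tested.

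Changes in these libraries also varied with gene length. Among the shortest of 3 equal length classes of tested genes, those outside the machinery had a median change of 0.50, while the 54 subunits and enzymes of that length had a median of 1.27. With the trend on gene length removed, an alternative chosen after the data were seen, 7 genes with the terms were called (6 higher, 1 lower), and complex medians ran between -0.18 in the TCA cycle and 1.01 in complex II.

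**Figure D3:**
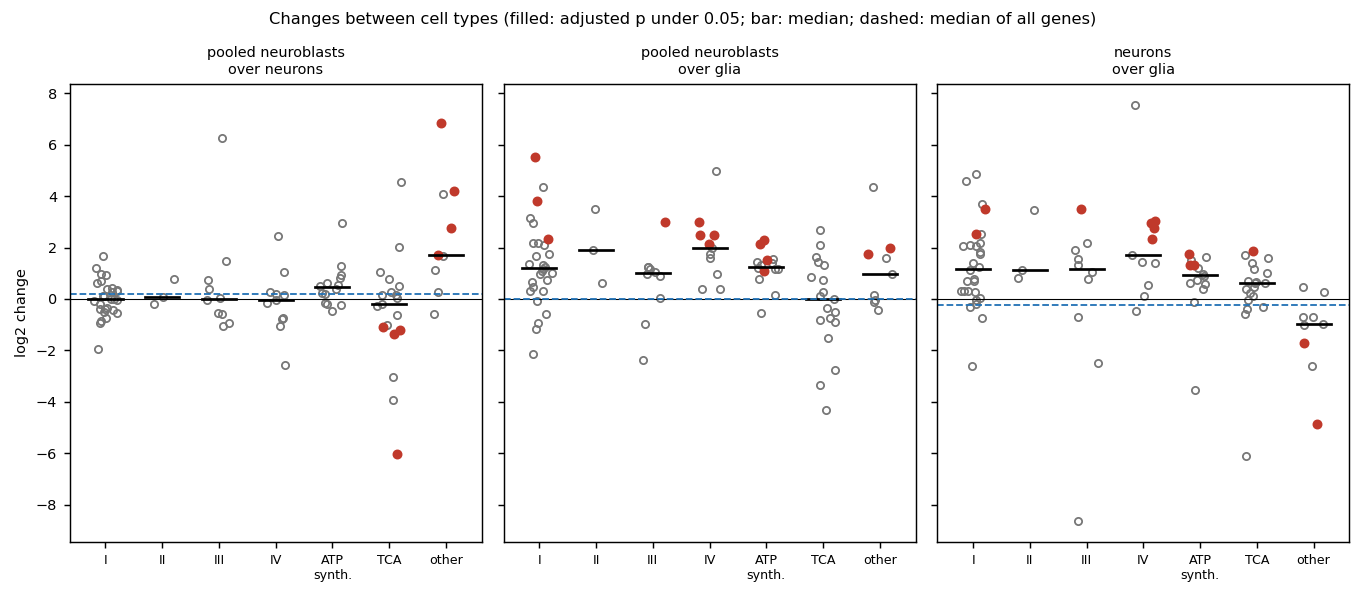
Log2 changes (vertical axis) of the tested genes by complex (I to IV, ATP synthase, TCA cycle, and other genes with the TCA or ATP synthase term) in pooled neuroblasts over neurons, pooled neuroblasts over glia and neurons over glia. Filled points passed an adjusted p of 0.05, bars are medians and the dashed line is the median of all genes tested. Medians of complexes I to IV and the ATP synthase lie between 0.92 and 2.00 in both panels against glia, and between -0.03 and 0.45 against neurons.

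Neurons had higher median values than glia for all 5 complexes and the TCA cycle, and calls in each class but complex II. Of 94 tested genes, 13 were called (13.8%, beside 20.1% of all genes tested), of which 11 were higher in neurons (11.7%, beside 9.37% of all genes tested) and 2 lower (2.13%, beside 10.8%). The glial libraries are those of the comparison above, so the values are not independent of it. The 11 are subunits or enzymes, and the median over the 85 subunits and enzymes was 1.00, beside -0.23 for all genes tested. The share called higher is near that of the whole table. RFeSP had 217 and 139 TPM in neurons and 6.67 and 22.2 TPM in glia (log2 change 3.52, SE 0.79, adjusted p = 0.0166). ND42 had 108 and 105 TPM in neurons and 1.54 and 15.3 TPM in glia (log2 change 3.52, SE 0.95, adjusted p = 0.0321). Complex IV again gave 4 of 11 tested genes, CoVIIc, CoVIII, CoVb and cype, a COX6C-type subunit.

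CoVIIc, a COX7C-type subunit, had 283 and 281 TPM in neurons and 32.9 and 32.6 TPM in glia. Its replicates nearly coincided, and the log2 change was 2.94 (SE 0.52, adjusted p = 0.00571). CoVIII had 129 and 111 TPM in neurons and 11.8 and 14.8 TPM in glia (adjusted p = 0.0460). ATPsyn-beta rose by 1.31, with 1377 and 1015 TPM in neurons and 393 and 489.5 TPM in glia. In the TCA cycle 1 of 19 tested genes rose, kdn, citrate synthase, with 369 and 344 TPM in neurons and 75.1 and 103 TPM in glia (log2 change 1.85, SE 0.38, adjusted p = 0.0108).

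The 2 genes lower in neurons were klu, with 1.21 and 4.17 TPM in neurons and 88.0 and 44.8 TPM in glia, and spoon, with 35.8 and 105 TPM in neurons and 139 and 249 TPM in glia. The inner membrane ADP/ATP carrier sesB had 1562 and 2129.5 TPM in neurons and 551 and 752 TPM in glia and rose by 1.31 (adjusted p = 0.00585), as the called gene of 9 carriers and pores. The mitochondrial DNA polymerase gene tam had 0.162 and 0 TPM in neurons, resting on 1 count, and 1.45 and 41.2 TPM in glia, which differ widely. The catalase gene Cat had 24.9 and 8.88 TPM in neurons and 189 and 70.6 TPM in glia and fell by 3.04 (adjusted p = 0.0355). Of 9 pyruvate entry and 8 assembly genes tested, 0 passed in either list. The count of 13 was 8 without the third pooled neuroblast library, which shares the estimate of spread, and 20 without the second glial library, and it was 45 in 1 fit over all 22 libraries and 27 with DESeq2. With the length trend removed, the count was 18 (15 higher, 3 lower).

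Respiratory chain and ATP synthase genes did not pass the test between pooled neuroblasts and neurons, and the enzymes that did were TCA cycle genes lower in neuroblasts. Of 94 tested genes, 4 were higher in pooled neuroblasts and 4 lower (4.26% each, beside 10.2 and 14.5% of all genes tested). The 4 that rose are klu, Rpd3, smt3 and spoon, none of them an enzyme of the cycle. Of 66 tested genes of complexes I to IV and the ATP synthase, 0 passed in either direction by edgeR, 0 had an unadjusted p under 0.05, and of 19 TCA cycle genes 4 fell. DESeq2 called 15 of the genes with the terms, and their split by class and direction is not given here. The 0 of 66 is thus stated for the edgeR fit only. In simulated counts for this comparison (9855 genes, 100 changed at each size) the same fit recovered 0% of changes of 1 log2 unit and 10% of changes of 2. In the data 24.7% of all genes tested were called, which makes the adjustment less strict than in the simulation. These rates therefore do not carry over to the data, and the part of the fit's sensitivity in the 0 of 66 was not tested.

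Mdh2, the mitochondrial malate dehydrogenase, had 157, 113 and 133 TPM in pooled neuroblasts and 316 and 343 TPM in neurons. It fell by 1.37 (SE 0.42, adjusted p = 0.0431). Nc73EF, the E1 subunit of 2-oxoglutarate dehydrogenase, had 121, 104 and 139.6 TPM in pooled neuroblasts and 257 and 278 TPM in neurons and fell by 1.22 (SE 0.27, adjusted p = 0.0104). Citrate synthase, kdn, had 208, 174 and 151 TPM in pooled neuroblasts and 369 and 344 TPM in neurons and fell by 1.10 (SE 0.33, adjusted p = 0.0384). For each of these 3 enzymes the neuroblast libraries lay below both neuron libraries. Under spike-in scaling per cell, which moves the median of all genes to 1.94, the direction of all 3 turned: Mdh2 0.38, Nc73EF 0.52 and kdn 0.65. CG32026, a second copy under the TCA term, had 0.615, 0.243 and 0.778 TPM in pooled neuroblasts and 46.7 and 18.7 TPM in neurons (log2 change -6.03, adjusted p = 0.0231). This change rests on 13 counts in pooled neuroblasts against 294 in neurons, and CG32026 overlaps the gene dally on the same strand.

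Pyruvate entry, the step before the cycle, was tested next. l(1)G0334, the E1 alpha subunit of pyruvate dehydrogenase, had 19.4, 21.9 and 26.8 TPM in pooled neuroblasts and 116 and 101 TPM in neurons and fell by 2.36 (adjusted p = 0.0206). Its kinase Pdk had 51.8, 45.8 and 35.3 TPM in pooled neuroblasts and 104 and 116 TPM in neurons and fell by 1.39 (adjusted p = 0.0306), with 0.38 under spike-in scaling. These were 2 of 9 tested genes of pyruvate entry, and 0 rose. The carrier sesB fell by 0.70 (adjusted p = 0.0372), with 1201, 1172 and 1188 TPM in pooled neuroblasts and 1562 and 2129.5 TPM in neurons, and was 1.08 under spike-in scaling. Of 6 tested regulators and antioxidant genes 1 passed. Ets97D, the fly relative of the respiratory gene regulator NRF-2/GABP alpha, had 61.4, 51.4 and 83.2 TPM in pooled neuroblasts and 4.83 and 9.30 TPM in neurons and rose by 3.17 (adjusted p = 0.0353). The DNA polymerase gene tam had 6.85, 15.6 and 13.9 TPM in pooled neuroblasts and 0.162 and 0 TPM in neurons (450 counts against 1, a ratio of 215 with a counting interval of 38.4 to 8511). Of 8 tested assembly genes, 0 passed.

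Of the genes that rose, the transcription factor gene klu had 375, 241 and 323 TPM in pooled neuroblasts and 1.21 and 4.17 TPM in neurons (log2 change 6.85, SE 0.64, adjusted p = 0.000132). The histone deacetylase gene Rpd3 had 195, 186 and 193 TPM in pooled neuroblasts and 13.5 and 4.84 TPM in neurons, smt3 had 5743, 5666 and 6076 TPM in pooled neuroblasts and 1044 and 505 TPM in neurons, and spoon had 262, 198 and 214 TPM in pooled neuroblasts and 35.8 and 105 TPM in neurons. With them included, the TCA term would sum to 9104 ± 194 TPM in pooled neuroblasts (SD, n = 3) and 3654 ± 550.3 TPM in neurons (SD, n = 2), although the enzymes alone stood at 2257 ± 62.9 TPM in pooled neuroblasts and 2709 ± 208 TPM in neurons.

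The count of 8 was 4 without the first or the third pooled neuroblast library and 5 without the second, and 25 in 1 fit over all 22 libraries. With the length trend removed it was 17 (5 higher, 12 lower), and complex medians ran from -1.10 in complex II to -0.55 in the ATP synthase, beside -0.22 (TCA cycle) to 0.45 (ATP synthase) without that step. Among other genes of the shortest class the median change was 0.70, against 0.08 for the 54 subunits and enzymes of that length.

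**Figure D4:**
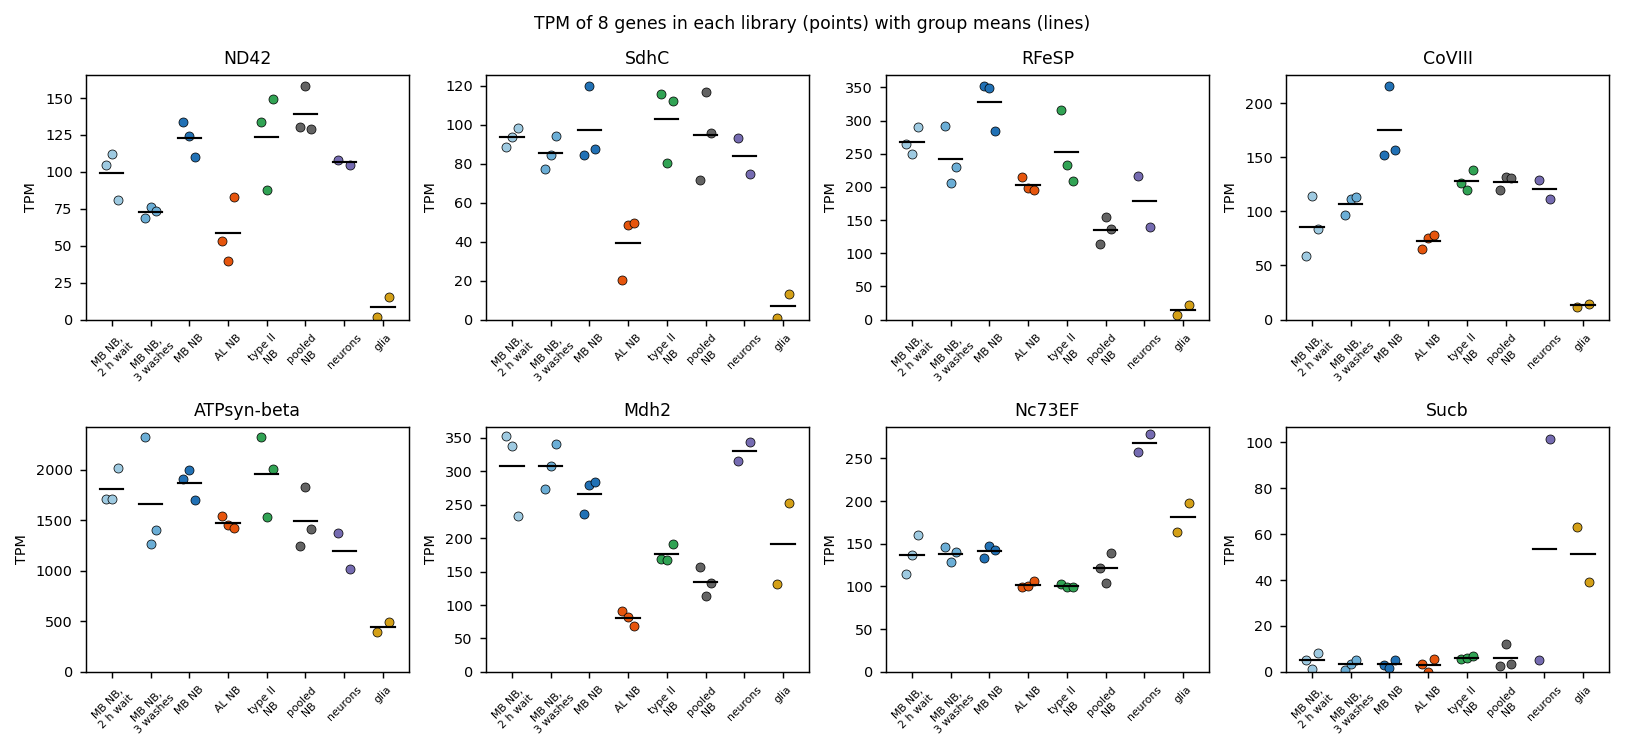
TPM (vertical axes, linear from 0) of 8 genes in each library, with group means as lines, over the 8 groups. ND42, SdhC, RFeSP, CoVIII and ATPsyn-beta are lowest in glia, Mdh2 is lowest in antennal lobe neuroblasts, Nc73EF is highest in neurons, and Sucb is high in 1 neuron library and both glial libraries.

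Sucb stood apart from its partner and was chosen for description after its values were seen. Succinyl-CoA ligase pairs an alpha subunit with either of a pair of beta subunits, Sucb (GTP-forming) or skap (ATP-forming). Sucb had 0 to 11.9 TPM over the 18 neuroblast libraries, 5.22 and 102 TPM in neurons and 63.1 and 39.2 TPM in glia. The neuron libraries disagreed by far. skap had 109 to 179 TPM in neuroblasts, 207 and 159.9 TPM in neurons and 93.6 and 219 TPM in glia. For pooled neuroblasts the change of Sucb did not pass against neurons (-3.05, adjusted p = 0.0906) or glia (-3.36, adjusted p = 0.0758).

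Subunits of all 5 complexes and TCA cycle enzymes were higher in mushroom body than in antennal lobe neuroblasts. Of 96 tested genes, 29 were higher (30.2%, beside 5.88% of 9249 genes tested) and 4 lower (4.17%, beside 5.96%). The 29 are main genes of a subunit or enzyme, and the 4 lower ones are klu, barr, smt3 and vimar, which are not enzymes of the cycle. The median over 87 subunits and enzymes was 0.62, beside 0.03 for all genes tested. By complex, 6 of 29 tested complex I genes rose, 3 of 3 in complex II, 4 of 10 in complex III, 4 of 11 in complex IV, 6 of 15 in the ATP synthase and 6 of 19 in the TCA cycle. Within each complex 0 subunits or enzymes fell, and the 6 medians ran from 0.40 (TCA cycle) to 1.08 (complex II). Spike-in scaling per cell lowered the median of all genes to -0.36 and those 6 medians to between 0.01 and 0.67, with 0 genes called. In 1 fit over all 22 libraries, whose shared spread includes the more variable neurons and glia, 4 genes with the terms were called in place of 33.

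Mdh2 had 237, 279 and 284 TPM in mushroom body neuroblasts, against 91.4, 81.8 and 68.6 TPM in antennal lobe neuroblasts. Each mushroom body library was over every antennal lobe library by a wide margin. The log2 change was 1.73 (SE 0.19, adjusted p = 6.39e-07), the largest of the 29 higher genes. Aconitase, Acon, rose by 0.40 (adjusted p = 0.0462), with 316, 285 and 310.1 TPM in mushroom body and 242, 224 and 222 TPM in antennal lobe neuroblasts. The other called enzymes were the 2-oxoglutarate dehydrogenase subunit Nc73EF, the succinyl-CoA ligase alpha subunit Scsalpha, SdhA and CG7430. CG7430, dihydrolipoyl dehydrogenase, the E3 subunit shared by pyruvate and 2-oxoglutarate dehydrogenase, had 60.8, 71.5 and 47.8 TPM in mushroom body and 30.6, 16.4 and 27.3 TPM in antennal lobe neuroblasts (log2 change 1.27, adjusted p = 0.00592).

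In complex I, CG6020, a subunit of the NDUFA9 type, had 65.1, 103 and 96.7 TPM in mushroom body and 20.6, 33.0 and 33.7 TPM in antennal lobe neuroblasts. The groups did not overlap, and the log2 change was 1.60 (SE 0.28, adjusted p = 0.000257). CG7712, of the NDUFA6 type, had 75.1, 91.6 and 101 TPM in mushroom body and 54.4, 34.9 and 15.8 TPM in antennal lobe neuroblasts, with more spread among the antennal lobe libraries (log2 change 1.36, adjusted p = 0.0366). ND42 rose by 1.05 (adjusted p = 0.00428), with 134, 124 and 110.3 TPM in mushroom body and 53.2, 39.4 and 83.2 TPM in antennal lobe neuroblasts.

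All 3 tested genes of complex II rose. SdhC had 84.3, 119.8 and 87.8 TPM in mushroom body and 20.4, 48.7 and 49.6 TPM in antennal lobe neuroblasts (log2 change 1.30, SE 0.33, adjusted p = 0.00934). SdhB had 96.1, 112 and 89.7 TPM in mushroom body and 58.7, 32.4 and 49.2 TPM in antennal lobe neuroblasts (log2 change 1.08), and CG10219 had 134, 164 and 116 TPM in mushroom body and 41.7, 78.8 and 75.8 TPM in antennal lobe neuroblasts (log2 change 1.07). In none of the 3 did the groups overlap.

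In complex III RFeSP had 352, 348 and 284 TPM in mushroom body and 215, 199 and 196 TPM in antennal lobe neuroblasts and rose by 0.68 (SE 0.18, adjusted p = 0.0125). Cytochrome c1, CG4769, had 333, 296 and 315 TPM in mushroom body and 188, 242 and 181 TPM in antennal lobe neuroblasts (log2 change 0.62). In complex IV CoVIII had 152, 216 and 157 TPM in mushroom body and 64.9, 74.9 and 78.1 TPM in antennal lobe neuroblasts (log2 change 1.27, adjusted p = 0.00400), and the other called genes were cype, CoIV and CG9603.

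In the ATP synthase ATPsynG had 355, 368 and 277 TPM in mushroom body and 113, 125 and 124 TPM in antennal lobe neuroblasts. Its groups were far apart, and the log2 change was 1.45 (SE 0.19, adjusted p = 7.30e-06). ATPsyn-gamma, the rotating central stalk, had 180.3, 227 and 173 TPM in mushroom body and 64.7, 84.3 and 90.4 TPM in antennal lobe neuroblasts (log2 change 1.27). The 3 most abundant ATP synthase genes did not pass: CG1746 had a log2 change of 0.14 (adjusted p = 0.446), blw 0.29 (adjusted p = 0.122) and ATPsyn-beta 0.34 (adjusted p = 0.111).

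Of the 76 main genes with 5 TPM or more in a group, 48 had every mushroom body library above every antennal lobe library and 1 had the reverse. Of all genes at that level 13.8% had every antennal lobe library below every mushroom body library. By complex these were 16 of 27 in complex I, 3 of 3 in complex II, 7 of 9 in complex III, 4 of 9 in complex IV, 10 of 12 in the ATP synthase and 8 of 16 in the TCA cycle.

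**Figure D5:**
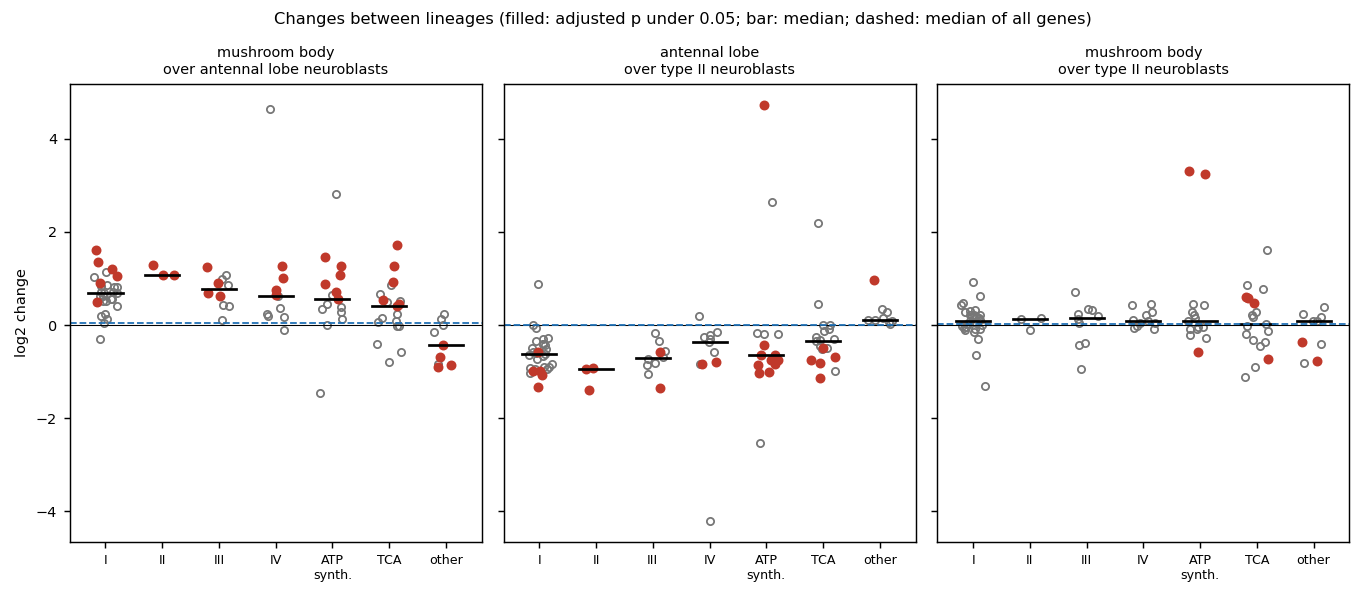
Log2 changes (vertical axis) of the tested genes by complex in mushroom body over antennal lobe, antennal lobe over type II and mushroom body over type II neuroblasts. Filled points passed an adjusted p of 0.05, bars are medians and the dashed line is the median of all genes tested. Complex medians lie between 0.40 and 1.08 in the left panel, between -0.94 and -0.34 in the middle panel and between 0.03 and 0.16 in the right panel.

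The lists around the machinery gave 4 of 9 tested genes of pyruvate entry higher in mushroom body neuroblasts and 0 lower. Besides CG7430, the pyruvate dehydrogenase subunit gene l(1)G0334 had 29.2, 34.8 and 38.4 TPM in mushroom body and 16.3, 20.02 and 15.02 TPM in antennal lobe neuroblasts (log2 change 1.00, adjusted p = 0.0359). Its E1 beta partner CG11876 had 115, 101 and 114 TPM in mushroom body and 53.4, 61.6 and 54.0 TPM in antennal lobe neuroblasts (log2 change 0.96, adjusted p = 0.000675), and the fourth was CG1516, pyruvate carboxylase. Cchl, the enzyme that attaches heme to cytochrome c, had 107, 111 and 75.8 TPM in mushroom body and 44.4, 59.6 and 64.4 TPM in antennal lobe neuroblasts (log2 change 0.79, adjusted p = 0.0322), as 1 of 8 assembly genes. bsf, an LRPPRC-like binder of mitochondrial RNA, had 80.3, 80.1 and 63.7 TPM in mushroom body and 42.1, 37.0 and 45.5 TPM in antennal lobe neuroblasts (log2 change 0.84, adjusted p = 0.00433), as 1 of 6 genes of mitochondrial DNA upkeep and transcription. ewg, the fly relative of the regulator NRF-1, had 19.2, 19.8 and 10.8 TPM in mushroom body and 23.5, 35.1 and 26.3 TPM in antennal lobe neuroblasts and fell by 0.78 (adjusted p = 0.0326), as 1 of 6 regulators and antioxidant genes. Of 8 tested carriers and pores, 0 passed.

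Other measures differed between these groups as well. Gene counts were 3150370 to 4161920 in mushroom body and 7771030 to 8947560 in antennal lobe libraries, and reads outside annotated genes were 8.89 to 9.07% in mushroom body and 10.3 to 11.6% in antennal lobe libraries. The noncoding gene CR43283 alone stood at 23086 to 27993 TPM in mushroom body and 80178 to 92677 TPM in antennal lobe neuroblasts. The neuroblast markers summed to 2570 to 2746 TPM in mushroom body and 3232 to 3643 TPM in antennal lobe neuroblasts. The 6 muscle markers overlapped, at 17.7 to 33.6 TPM in mushroom body and 8.08 to 21.8 TPM in antennal lobe neuroblasts. Their part in the result was not tested. With TPM taken over protein-coding genes alone, the summed machinery was higher in mushroom body neuroblasts by 0.29 on the log2 scale, in place of 0.43.

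Gene length moved with this result too. Other genes of the shortest class had a median change of 0.23, against 0.72 for the 54 subunits and enzymes of that length. With the length trend removed, 25 genes were called (21 higher, 4 lower), the 6 complex medians ran from 0.28 to 0.87, and the median over subunits and enzymes was 0.41.

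The machinery was also lower in antennal lobe than in type II neuroblasts. With TPM over protein-coding genes alone, it summed to 21374 to 23011 TPM in antennal lobe and 26803 to 28314 TPM in type II libraries. Of 96 tested genes, 2 were higher in antennal lobe neuroblasts (2.08%, beside 6.08% of all genes tested) and 26 lower (27.1%, beside 5.34%). The 26 are main genes, and the 2 higher ones are klu and CG5389, a second copy of ATP synthase beta. The antennal lobe libraries are the same as in the comparison with the mushroom body, so these results are not independent. The median over 87 subunits and enzymes was -0.59, beside 0.00 for all genes tested. By complex, 5 of 29 fell in complex I, 3 of 3 in complex II, 2 of 10 in complex III, 2 of 11 in complex IV, 9 of 15 in the ATP synthase and 5 of 19 in the TCA cycle. The 6 complex medians were below 0 under all scalings run, and the spike-in scaling moved the median of all genes to -1.06. That scaling rests on 6930, 16505 and 17865 ERCC counts in type II libraries and 34835 to 36613 in antennal lobe libraries.

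SdhC had 20.4, 48.7 and 49.6 TPM in antennal lobe and 116, 80.4 and 112 TPM in type II neuroblasts and fell by 1.39 (SE 0.32, adjusted p = 0.00602). CG7580, the small UQCRQ-type subunit of complex III, had 161, 160.2 and 142 TPM in antennal lobe and 373, 342 and 447 TPM in type II neuroblasts. These groups were well separated, and CG7580 fell by 1.34 (SE 0.18, adjusted p = 9.99e-06). ND23, an iron-sulfur subunit of the complex I core, had 25.9, 60.4 and 50.0 TPM in antennal lobe and 120.0, 121 and 96.4 TPM in type II neuroblasts and fell by 1.33 (adjusted p = 0.0125). Mdh2 had 91.4, 81.8 and 68.6 TPM in antennal lobe and 169, 168 and 191 TPM in type II neuroblasts and fell by 1.15 (SE 0.19, adjusted p = 0.000210).

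The 9 called ATP synthase genes included ATPsyn-beta, which had 1543, 1453 and 1428 TPM in antennal lobe and 2323, 1535 and 2006 TPM in type II neuroblasts (log2 change -0.42, adjusted p = 0.0427). Of the 76 main genes with 5 TPM or more in a group, 38 had every antennal lobe library below every type II library and 0 had the reverse. Of all genes at that level 12.1% had every antennal lobe library below every type II library. klu had 657, 584 and 517 TPM in antennal lobe and 285, 334.01 and 265 TPM in type II neuroblasts, a change of 0.97 that turned to -0.10 under spike-in scaling.

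Among the other lists, pyruvate entry gave 2 of 9 tested genes lower and 0 higher. CG1516 had 67.4, 61.9 and 46.1 TPM in antennal lobe and 121, 142 and 143 TPM in type II neuroblasts and fell by 1.23 (adjusted p = 6.56e-06), and CG11876 fell by 0.79 (adjusted p = 0.00497). CG9065, a COX17-type copper chaperone of complex IV, had 27.0, 64.6 and 62.1 TPM in antennal lobe and 125, 205 and 129.6 TPM in type II neuroblasts and fell by 1.60 (adjusted p = 0.00960), as 1 of 8 assembly genes. Of 6 genes of mitochondrial DNA upkeep and transcription, the termination factor gene mTTF (14.04, 19.5 and 15.5 TPM in antennal lobe and 40.9, 46.5 and 35.3 TPM in type II neuroblasts) fell by 1.34 and bsf by 0.61 (adjusted p = 0.0157 and 0.0389). Cat fell by 1.07 (adjusted p = 0.0167), as 1 of 6 regulators and antioxidant genes, and 0 of 8 carriers and pores passed.

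The count of 28 was 15 without the first antennal lobe library and 15 without the third type II library. It was 3 in 1 fit over all 22 libraries and 15 (3 higher, 12 lower) with the length trend removed, where the complex medians ran from -0.69 to -0.07. Other genes of the shortest class had a median change of -0.24, against -0.73 for subunits and enzymes of that length. Gene counts were 7771030 to 8947560 in antennal lobe and 4512100 to 5765180 in type II libraries. Reads outside annotated genes were 10.3 to 11.6% in antennal lobe and 8.60 to 9.56% in type II libraries. CR43283 stood at 80178 to 92677 TPM in antennal lobe and 39633 to 50953 TPM in type II libraries. The part of these measures in the result was not tested.

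Between mushroom body and type II neuroblasts, single TCA cycle enzymes passed the test, and shares of the machinery called were near the background. Of 96 tested genes, 9 were called (9.38%, beside 10.4% of all genes tested), of which 5 were higher in mushroom body neuroblasts (5.21%, beside 5.63% of all genes tested) and 4 lower (4.17%, beside 4.72%). The median over subunits and enzymes was 0.09, beside 0.03 for all genes, and 0 of 53 tested genes of complexes I to IV passed. Under spike-in scaling 71 genes were called lower, with the median of all genes at -1.44 and the complex medians between -1.48 and -1.24. That scaling rests on 6930, 16505 and 17865 ERCC counts in type II libraries and 22772 to 35214 in mushroom body libraries. The part of this difference in the calls was not tested.

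Citrate synthase, kdn, had 413, 331 and 382 TPM in mushroom body and 189, 319 and 218 TPM in type II neuroblasts and rose by 0.61 (SE 0.17, adjusted p = 0.0265). Mdh2 had 237, 279 and 284 TPM in mushroom body and 169, 168 and 191 TPM in type II neuroblasts and rose by 0.58 (SE 0.19, adjusted p = 0.0470). Nc73EF had 133, 147 and 142 TPM in mushroom body and 103, 98.9 and 99.6 TPM in type II neuroblasts and rose by 0.47 (SE 0.14, adjusted p = 0.0317). In these 3 enzymes each mushroom body library was over each type II library, and under spike-in scaling the changes turned to -0.74, -0.90 and -1.04.

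CG6439, the beta subunit of NAD-dependent isocitrate dehydrogenase, had 157, 156 and 181 TPM in mushroom body and 242, 316 and 252 TPM in type II neuroblasts and fell by 0.73 (SE 0.16, adjusted p = 0.00277). CG3321, subunit e of the ATP synthase, had 384, 424 and 382 TPM in mushroom body and 563, 593 and 590.0 TPM in type II neuroblasts and fell by 0.57 (adjusted p = 0.0208). smt3 fell by 0.37 and barr, a condensin subunit gene, by 0.77 (adjusted p = 0.0231 and 0.00623). The second copy CG31477 rose by 3.30 (adjusted p = 0.0309), with 48.4, 37.3 and 29.3 TPM in mushroom body and 9.51, 0 and 1.10 TPM in type II neuroblasts. CG5389 rose by 3.25 (adjusted p = 0.0320), with 4.37, 2.03 and 3.80 TPM in mushroom body and 0.208, 0.269 and 0.528 TPM in type II neuroblasts.

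Of the lists, Ant2, a second ADP/ATP carrier gene beside sesB, had 43.1, 54.0 and 50.9 TPM in mushroom body and 9.62, 5.44 and 19.8 TPM in type II neuroblasts and rose by 2.08 (adjusted p = 0.00338), as 1 of 8 carriers and pores. Ant2 and sesB lie next to each other and their shared reads could be split by the counting. Pdk rose by 0.95 and CG1516 fell by 0.67 among 9 genes of pyruvate entry (adjusted p = 0.0161 and 0.00608), with Pdk at -0.47 under spike-in scaling. CG9065 fell by 1.38 as 1 of 8 assembly genes (adjusted p = 0.0269) and Cat by 0.98 as 1 of 6 regulators and antioxidant genes (adjusted p = 0.0300). Of 6 genes of mitochondrial DNA upkeep and transcription, 0 passed. The count of 9 was 3 to 5 without any 1 of the mushroom body or type II libraries and 0 in 1 fit over all 22 libraries.

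The 3 lineages, taken with equal weight, differed from the pool in single genes of most complexes, in both directions. Of 96 tested genes, 11 were higher (11.5%, beside 6.55% of all genes tested) and 9 lower (9.38%, beside 5.23%), and the median over subunits and enzymes was 0.00, beside -0.02 for all genes. Within complexes genes moved both ways: 1 rose and 3 fell of 29 in complex I, 2 and 1 of 10 in complex III, 2 and 1 of 11 in complex IV, 4 and 2 of 15 in the ATP synthase and 2 and 1 of 19 in the TCA cycle. Under spike-in scaling 1 gene was called, and in 1 fit over all 22 libraries 7 were.

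RFeSP rose by 0.98 (SE 0.15, adjusted p = 0.000140), with 196 to 352 TPM in the 9 lineage libraries and 114, 155 and 136 TPM in the pool. kdn rose by 0.87 (adjusted p = 0.000451), with 189 to 413 TPM in the lineages and 208, 174 and 151 TPM in the pool. l(1)G0230, the delta subunit of the ATP synthase, had 563 to 750.1 TPM in the lineages and 348, 405 and 346 TPM in the pool (log2 change 0.84, adjusted p = 3.62e-05), and the complex IV gene CoVa had 522 to 764 TPM in the lineages and 378, 396 and 443 TPM in the pool (log2 change 0.78, adjusted p = 0.000135). For RFeSP, l(1)G0230 and CoVa every lineage library was above every pool library.

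The complex III gene ox had 23.6 to 59.2 TPM in the lineages and 145, 87.2 and 102 TPM in the pool and fell by 1.50 (SE 0.38, adjusted p = 0.0125). CG9603 in complex IV had 318 to 659 TPM in the lineages and 925, 911 and 834 TPM in the pool and fell by 0.85 (adjusted p = 5.32e-05). ATPsyn-gamma fell by 0.75 (adjusted p = 0.00639), with 64.7 to 227 TPM in the lineages and 317, 207 and 149.7 TPM in the pool.

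Of 8 tested carriers and pores 3 rose. Ucp4C rose by 3.39, sesB by 0.47 and porin by 0.40 (adjusted p = 0.0156, 0.00393 and 0.0118). CG1516 rose by 0.60 and Pdk fell by 0.70 among 9 genes of pyruvate entry (adjusted p = 0.00362 and 0.0198). Ets97D fell by 0.90 (adjusted p = 0.0278) as 1 of 6 regulators and antioxidant genes, and 0 passed among 6 genes of mitochondrial DNA upkeep and transcription and 8 assembly genes.

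Handling moved no gene of the machinery past the threshold in mushroom body neuroblasts. Of the members tested, 0 were called after the 2 h wait (0.0228% of 8766 genes tested were, in either direction) and 0 after 3 washes (0.833%), by edgeR's quasi-likelihood test. At an unadjusted p under 0.05, 13 of 94 members passed after the wait and 13 of 94 after the washes. The share of all genes at that unadjusted threshold is not given here, so these counts do not set the members apart from other genes. DESeq2 called 0 after the wait and 2 after the washes. Complex medians were between -0.31 (complex II) and 0.19 (TCA cycle) after the wait and between -0.21 and 0.12 after the washes. Spike-in scaling per cell put the median of all genes at 0.77 after the washes, and 26 members were then called higher. In simulated counts for the wait (8766 genes, 100 changed at each size), this fit recovered 41% of changes of 1 log2 unit and 84% of changes of 2. Calls were far rarer in the data, so these rates do not carry over to them.

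Mdh2 had 352, 338 and 233 TPM after the wait, 274, 308 and 341 TPM after the washes and 237, 279 and 284 TPM in the standard group. ND42 had 105, 112 and 81.1 TPM after the wait, 68.4, 76.2 and 73.8 TPM after the washes and 134, 124 and 110.3 TPM in the standard group, a change of -0.74 for the washes (SE 0.21, adjusted p = 0.128) although the groups did not overlap. CoVIII had 58.9, 114 and 84.0 TPM after the wait, 96.8, 112 and 113 TPM after the washes and 152, 216 and 157 TPM in the standard group, where again every handled library was below (adjusted p = 0.362 for the wait and 0.586 for the washes).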

How the data were processed

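RNA of 22 pools of sorted larval brain cells was amplified and sequenced, per the labels' protocols, from 30 dissected brains a preparation (Ovation RNA-Seq V2 amplification, with ERCC spike-ins). The tools named by the submitters' processing notes are STAR 2.4.0i, Bowtie2 2.1.0, HTSeq 0.6.1p1, cutadapt 1.7.1 and CASAVA, with dm3 among the builds. Their order and the use of strand are not stated there. The authors deposited a table of read counts per gene, raw and whole, and a table of TPM. The deposited TPM were found to be made from the deposited counts over a gene length. 0 columns of the tables lacked a sample. A row with no gene name (at most 17 counts a library) was left out.

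Members were found by the gene ontology terms in the deposited TPM table and were sorted by complex, and by main gene, second copy or other gene, by hand. Members, lists and comparisons were chosen with earlier results of these data known, and the lists of surrounding genes support nothing by themselves. Named genes are the 3 markers, for each complex the gene of highest mean TPM and that of largest ratio of group means, all called members of a comparison where 6 or fewer were called, otherwise up to 4 in each direction with at least 20 TPM in the higher group, and up to 2 called genes of each list. A gene named by this rule is not reported here and is left out of the heat map of single genes, but stays in counts and sums. Other named genes, including Sucb and skap, were chosen after their values were seen.

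Levels and sums are deposited TPM with SD between libraries. Tests are edgeR 4.0.16 quasi-likelihood fits (R 4.3.3; TMM scaling, filterByExpr, robust) in 3 sets of libraries: pooled neuroblasts, neurons and glia (7 libraries, 9855 genes), the 3 lineages and the pool (12 libraries, 9249 genes), and the handling groups with the standard group (9 libraries, 8766 genes), with Benjamini-Hochberg adjustment over all genes tested and a threshold of 0.05. SE is that of the log2 change. The fits were tested on simulated data. Replicate libraries differed beyond sampling noise, so none was counted as a duplicate. Total gene counts of 3150370 to 14282200 a library set the counting error, and intervals cover counting error only. Alternatives were other scalings (DESeq2 size factors; ERCC counts per cell), no filter on low counts, DESeq2 1.42.0, limma 3.58.1 on log2(TPM + 1) and log2(TPM + 0.1), 1 fit of 22 libraries, a replicate block, each library left out in turn, TPM over protein-coding genes, and removal of the trend on gene length, which was added after seeing the data. Planned searches of promoters and of protein identity between members were not run.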

Additional observations from a re-analysis of the deposited data

How the results depend on the processing

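Counts of called genes with the terms moved with the scaling, the shared spread and the test. Under spike-in counts per cell they were 37 (pooled neuroblasts over neurons), 84 (pooled neuroblasts over glia), 57 (neurons over glia), 0 (mushroom body over antennal lobe), 71 (mushroom body over type II), 75 (antennal lobe over type II), 1 (3 lineages over the pool) and 26 (3 washes over none). In 1 fit of 22 libraries they were 25, 48 and 45 in the first 3 of these comparisons, 4 for mushroom body over antennal lobe, 0 for mushroom body over type II, 3 for antennal lobe over type II and 7 for the lineages over the pool. Against neurons, against glia and between neurons and glia, DESeq2 gave 15, 32 and 27, limma gave 17, 39 and 28 with a pseudocount of 1, and 13, 34 and 28 with 0.1. DESeq2 gave 2 after 3 washes, where no filter on low counts gave 1. With the length trend removed, chosen after seeing the data, the counts were 17 over neurons, 7 over glia and 15 for antennal lobe over type II. The cause of these moves was not tested. All counts under alternatives, here and above, stand without the share of all genes called under the same setting. They describe how calls depend on the setting and do not set these genes apart from others. Spike-in scaling also moved the median of all genes, as given above for several comparisons.

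With the replicate number as a block, the counts were 5 (pooled neuroblasts over neurons), 4 (over glia) and 6 (neurons over glia), and within 1.5 times the main count elsewhere. The numbers do not pair the libraries: same-numbered libraries correlated in their deviations from the group means at -0.0569 to 0.105, with 1 of 18 pairs over 0.1 among the lineages and 0 of 6 and 0 of 9 elsewhere.

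Leaving out each library in turn gave 4 to 10 calls for pooled neuroblasts over neurons, 5 to 25 over glia, 8 to 20 for neurons over glia, 23 to 34 for mushroom body over antennal lobe, 3 to 9 for mushroom body over type II, 15 to 28 for antennal lobe over type II, 15 to 21 for the lineages over the pool and 0 to 0 for the wait and the washes. Summed TPM over protein-coding genes gave log2 ratios of 1.03 (complex I), 1.17 (ATP synthase), 0.17 (TCA cycle) and 1.02 (all) for pooled neuroblasts over glia, and 0.20 (ATP synthase), 0.18 (TCA cycle) and 0.29 (all) for mushroom body over antennal lobe. These are all in the direction of the deposited TPM.

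The next counts cover 81 pairs of a gene and a comparison, picked by the rule for named genes. Other changes named above, such as those of ATPsyn-beta, are not among them. Of 729 values of these pairs under alternatives, 594 kept direction and call, 124 missed the threshold and 11 reversed, all 11 under spike-in scaling. They are Mdh2 0.38, Nc73EF 0.52, kdn 0.65, sesB 1.08 and Pdk 0.38 for pooled neuroblasts over neurons, Pdk 2.03 over glia, kdn -0.74, Mdh2 -0.90, Nc73EF -1.04 and Pdk -0.47 for mushroom body over type II, and klu -0.10 for antennal lobe over type II. With a library left out, 634 of 817 kept direction and call and 183 missed the threshold. Groups of 2 or 3 libraries limit all tests. Searches of promoters and protein identity were not run.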
